A study of Homo sapiens with 6 samples.

Results

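The genes described here encode the machinery that D-type cyclins drive: the cyclins *CCND1*, *CCND2* and *CCND3*, their partner kinases *CDK4* and *CDK6*, the kinase inhibitors *CDKN2C*, *CDKN2D*, *CDKN1B* and *CDKN1C*, and *RB1*, the substrate that the kinases inactivate. They were chosen by name, and each was matched to its symbol in the merged read-count table, which gave 10 genes of the 23012 symbols with counts there. The list was chosen with results of the contrast below already known, so the differences of these 10 genes are given as a description, with no test of their own.

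Transcripts were measured by RNA-seq in 6 libraries of total RNA from HEK293T cells, a human embryonic kidney line that carries adenovirus E1A and the large T antigen of SV40. All cells were infected with pLKO.1 lentivirus, selected with neomycin as stable lines and grown in DMEM with 10% FBS. In 3 libraries (sh-control) the virus carried a hairpin against a nonspecific sequence, and in 3 libraries (sh-*RREB1*) a hairpin against *RREB1*, a zinc finger transcription factor. Whether the 3 replicates of a group were separate infections, clones or cultures is not given in the sources used here, so the errors below measure only the spread between these samples.

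D-type cyclins couple growth factor signals to the cell cycle. Transcription of *CCND1* in particular rises when RAS-ERK signaling is active, and the proteins bind CDK4 or CDK6 and phosphorylate RB, which then releases E2F factors and lets the cell pass from G1 into S phase. INK4 proteins, among them p18 (*CDKN2C*) and p19 (*CDKN2D*), bind the kinases and keep cyclin D away. CIP/KIP proteins, among them p27 (*CDKN1B*) and p57 (*CDKN1C*), block mainly the CDK2 complexes that act next. E1A and large T, which these cells carry, also bind RB, through a short motif called LxCxE.

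The D-type cyclins carry the same LxCxE motif near their amino terminus. The first 42 coding bases of each gene are shown because they hold this docking site and because they show how far the mRNAs have diverged, which bears on whether reads can be told apart. The sequences come from the Ensembl canonical transcripts of Gencode version 44 (GRCh38), lie in a coding exon and are written from the start codon, and the capitals mark the 5 codons of the motif.
CCND1: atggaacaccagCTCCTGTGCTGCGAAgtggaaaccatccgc
CCND2: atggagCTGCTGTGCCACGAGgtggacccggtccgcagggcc
CCND3: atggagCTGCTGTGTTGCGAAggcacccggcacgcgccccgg
The *CCND1* stretch is at chr11:69641314-69641355 on the plus strand and its motif spans codons 5 to 9. The *CCND2* stretch is at chr12:4274041-4274082 on the plus strand and the *CCND3* stretch at chr6:41941608-41941649 on the minus strand, with the motif at codons 3 to 7 in both.

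Over their aligned coding bases *CCND1* and *CCND2* were 67.4% identical, *CCND1* and *CCND3* 62.7%, and *CCND2* and *CCND3* 69.0%. The longest run without a mismatch in any of these pairs was 23 bases, gccacctggatgctggaggtctg, shared by *CCND1* (coding bases 181 to 203) and *CCND2* (coding bases 178 to 200), and it crosses an exon junction in both genes. *CDK4* and *CDK6* were 68.3% identical with a longest shared run of 16 bases, *CDKN2C* and *CDKN2D* 53.4% with 11 bases, and *CDKN1B* and *CDKN1C* 57.2% with 14 bases.

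The libraries held between 12257054 and 33044061 reads on the strand of an annotated gene. The library labelled sh-*RREB1* replicate 3 was the shallowest and stood apart, since 52.1% of its aligned reads mapped to several places, against 3.66% to 7.63% in the other 5, and 24.2% of its reads on genes lay on the opposite strand, against 4.92% to 5.47%. By gene counts, sh-control replicate 1 stood apart from its own group. A chi-square per degree of freedom was 48.3 and 60.3 against the other sh-control libraries and 4.69 between those. It was 54.2 between sh-*RREB1* replicates 1 and 2, and 14.0 and 18.1 between these and replicate 3. This chi-square grows with read depth, so the values of the shallow replicate 3 cannot be ranked against the rest. *RREB1* itself stood at 27.1, 25.1 and 26.5 CPM (counts per 1000000 reads on genes, scaled by TMM) in sh-control and at 23.7, 24.6 and 23.1 CPM in sh-*RREB1*, a log2 fold change of −0.14 (SE 0.13, 95% confidence interval −0.43 to 0.15, edgeR adjusted p = 0.489). Every sh-*RREB1* library was lower than every sh-control library, but the interval as counted includes 0. With the correction for GC content and exonic length described below, the log2 fold change was −0.36 (SE 0.12, 95% interval −0.63 to −0.10, edgeR adjusted p = 0.0539). The targeted mRNA was thus not called lower in either fit, and "sh-*RREB1*" below means the libraries labelled so. The study reports reduced *RREB1* mRNA and protein in HEK293 cells with its hairpin, from measurements other than these counts. Why the counts show a smaller difference was not tested. Markers of HEK293 cells (*VIM*, *NEFM*, *NEFL*, *KRT8*, *KRT18*) summed to 425 to 492 CPM in sh-control and to 713 to 832 CPM in sh-*RREB1*. All 5 were present in every library. Markers of B lymphoblastoid cells, which the study also used, summed to at most 1.33 CPM, with *MS4A1* at 0 reads throughout, and 4 fibroblast markers to at most 13.1 CPM. Below, a gene is said to be called when edgeR's quasi-likelihood test gave an adjusted p below 0.01 over all genes tested and the absolute log2 fold change exceeded 1.

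Levels of different genes were compared per length, as CPM per kilobase of exon (CPM per kb). In sh-control cells *CDK4* had the highest level, 63.1 ± 9.31 CPM per kb (SD, n = 3), followed by *RB1* at 29.2 ± 4.63, *CDKN2C* at 16.6 ± 2.75 and *CDK6* at 9.28 ± 1.24 CPM per kb. *CCND2* was the most abundant D-type cyclin at 7.67 ± 0.32 CPM per kb. Below it came *CDKN1B* at 3.39 ± 0.14, *CCND1* at 3.23 ± 0.26 and *CCND3* at 2.15 ± 0.49 CPM per kb, and the lowest levels were those of *CDKN2D*, 1.50 ± 0.41, and *CDKN1C*, 0.94 ± 0.09 CPM per kb. The ranges of *CDKN1B* and *CCND1* overlapped, as did those of *CCND3* and *CDKN2D*, so the order within these pairs was not larger than the spread between libraries. All other neighbours were separated in the 3 sh-control libraries. In sh-*RREB1*, *CCND2* moved from the fifth place to the second, at 27.3 ± 0.38 CPM per kb, above *RB1* (19.4 ± 4.61) and *CDK6* (18.5 ± 4.18). The order depends on the length used: with the length of the canonical transcript in place of all annotated exons, only 3 of the 10 genes kept their place, and *CDKN2C* (50.3 ± 8.33 CPM per kb) came before *RB1* (39.5 ± 6.25).

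**Figure D1:**
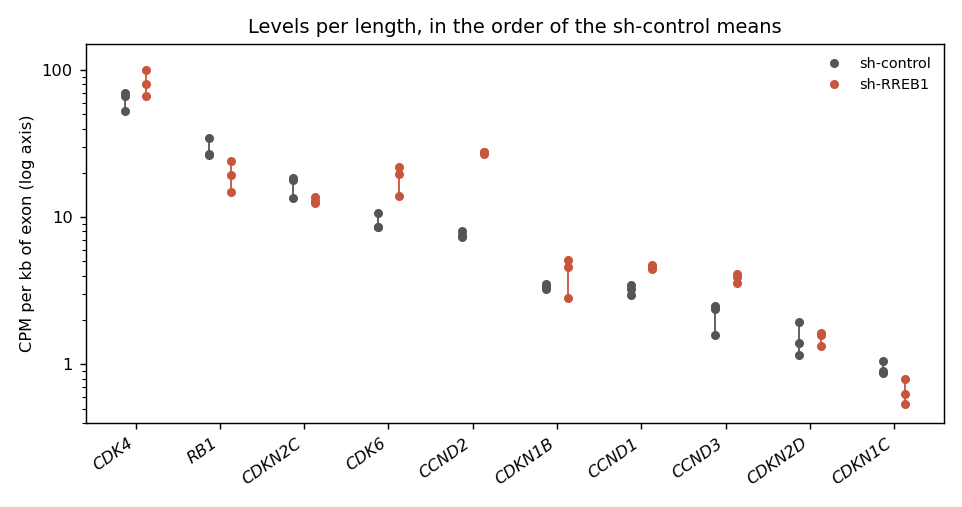
Level of each gene in CPM per kb of exon on a log axis, genes ordered by their sh-control mean. Points are libraries and lines join the lowest and highest library of a group. *CDK4* leads in both groups, and *CCND2* climbs from 7.67 to 27.3 CPM per kb.

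Of the 10 genes, *CCND2* showed the largest difference in the values as counted. It encodes cyclin D2 and lies at chr12:4269771-4305353 on the plus strand. Its read counts were 1399, 1607 and 2057 in sh-control (60.7, 59.0 and 64.0 CPM) against 5346, 5760 and 2780 in sh-*RREB1* (215, 220.0 and 220.0 CPM). The groups were far apart and each was tight, with means of 61.2 ± 2.53 and 218 ± 3.01 CPM (SD, n = 3). *CCND2* mRNA was thus 3.56-fold higher in sh-*RREB1*, a log2 fold change of 1.83 (SE 0.10, 95% interval 1.61 to 2.06). Leaving out each library in turn gave 1.78 to 1.85, and the gene was called in all 6 of these fits. Without sh-*RREB1* replicate 3 the log2 fold change was 1.83. At most 3 reads of any library lay on the opposite strand of *CCND2*. In bulk RNA, more cells of a type that transcribes a gene and more of its RNA per cell cannot be told apart, here or for the genes below.

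*CCND1*, which encodes cyclin D1 (chr11:69641156-69654474, plus strand), stood at 14.1, 15.4 and 16.6 CPM in sh-control and at 21.7, 22.6 and 21.3 CPM in sh-*RREB1*. Every sh-*RREB1* library was above every sh-control library, but the step was smaller, with a log2 fold change of 0.51 (SE 0.14, 95% interval 0.18 to 0.83). *CCND3*, which encodes cyclin D3 (chr6:41934934-42050357, minus strand), stood at 9.15, 13.7 and 14.2 CPM in sh-control and at 20.5, 22.6 and 23.5 CPM in sh-*RREB1*. The groups did not overlap either, and the log2 fold change was 0.84 (SE 0.19, 95% interval 0.40 to 1.28), with sh-control replicate 1 the lowest library by far. Without that library it was 0.63.

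**Figure D2:**
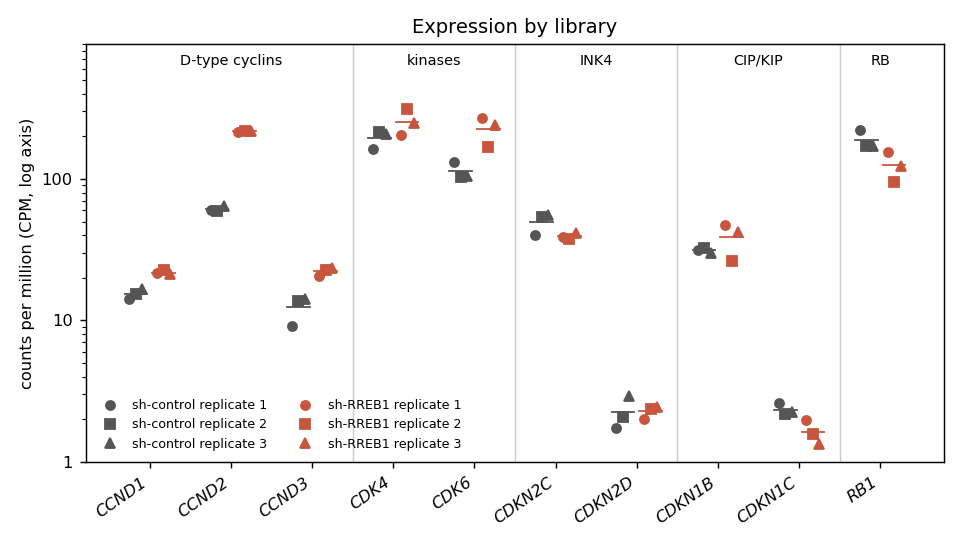
CPM of the 10 genes in each library on a log axis. Symbols mark replicates 1 to 3 and short lines the group means, grey for sh-control and red for sh-*RREB1*. The *CCND2* points of the groups are widely separated (59.0 to 64.0 against 215 to 220.0 CPM), while those of *CDKN2D* overlap.

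The make-up of the D-type cyclin pool differed between the groups. As a share of the CPM per kb of the 3 genes together, *CCND2* made up 62.5%, 56.8% and 57.4% in sh-control and 76.8%, 76.1% and 76.3% in sh-*RREB1*. *CCND1* made up 24.7% ± 0.27 in sh-control and 12.8% ± 0.38 in sh-*RREB1*, and *CCND3* 16.4% ± 2.88 and 10.8% ± 0.56 (SD, n = 3). *CCND1* and *CCND3* therefore took smaller shares although their own CPM were higher. The sum of the 3 cyclins was 13.0 ± 0.91 CPM per kb in sh-control and 35.8 ± 0.66 CPM per kb in sh-*RREB1*. With canonical transcript lengths *CCND2* made up 49.4% and 67.6%, and *CCND3* (31.6% and 22.0%) came before *CCND1* (18.9% and 10.4%).

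**Figure D3:**
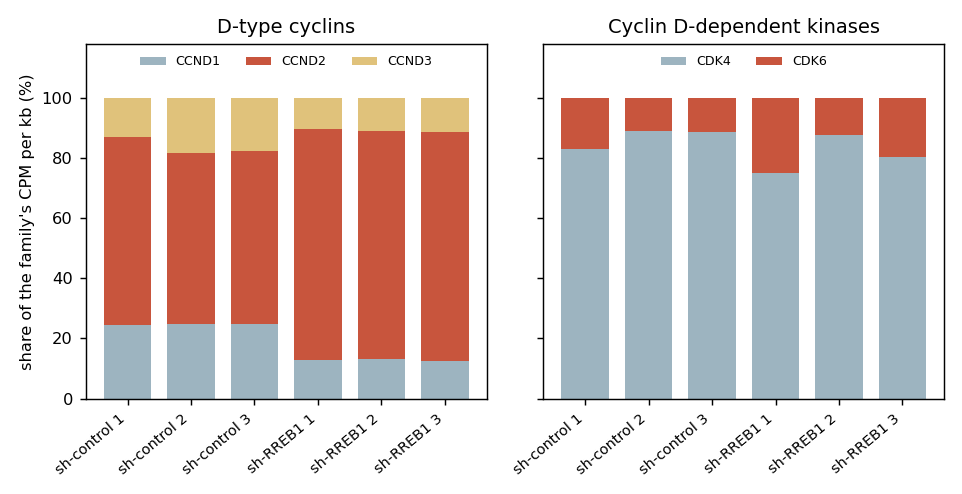
Share of each gene in the summed CPM per kb of its family, in percent, for each library. Left, D-type cyclins, in which *CCND2* takes 56.8% to 62.5% of sh-control and 76.1% to 76.8% of sh-*RREB1*. Right, the kinases, in which the *CDK6* share differs between replicates of one group as much as between groups.

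The genes whose profile over the 6 libraries was most like that of *CCND2* were *DGKI* (diacylglycerol kinase iota), the unnamed gene ENSG00000254682 and *EYA1* (a transcriptional coactivator with phosphatase activity), each with a Pearson correlation of log2 CPM of 0.999, among 14594 genes with a mean of at least 1 CPM. *DGKI* stood at 1.43 to 1.65 CPM in sh-control and 20.4 to 20.9 CPM in sh-*RREB1*, and *EYA1* at 8.89 to 10.0 and 32.8 to 35.7 CPM. The unnamed gene (chr11:71448562-71452157) stood at 2.13 to 2.21 and 6.23 to 6.45 CPM. The 6 points share their libraries and fall into 2 groups, and 54 genes had a correlation above 0.99, so the measure mostly selects genes with a large step between tight groups.

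*CDK4* and *CDK6* encode the kinases that D-type cyclins activate. *CDK6* (chr7:92604921-92836573, minus strand) stood at 131, 104 and 106 CPM in sh-control and at 269, 169 and 240.2 CPM in sh-*RREB1*. All sh-*RREB1* libraries were higher, but replicate 2 sat well below replicates 1 and 3. The log2 fold change was 0.99 (SE 0.18, 95% interval 0.59 to 1.40), just under the limit of 1 that a call required. It was 1.17 without sh-*RREB1* replicate 2 and 1.08 without sh-control replicate 1, and the gene was then called. *CDK4* (chr12:57747727-57756013, minus strand) stood at 162, 216 and 207 CPM in sh-control and at 204, 310.3 and 249.6 CPM in sh-*RREB1*. The groups overlapped, and the log2 fold change was 0.39 (SE 0.17, 95% interval −0.00 to 0.77). It depended on single libraries: it was 0.22 when sh-*RREB1* replicate 2 was left out, 0.23 when sh-control replicate 1 was left out, and 0.52 when sh-*RREB1* replicate 1 was left out.

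*CDK6* made up 17.0%, 10.8% and 11.4% of the CPM per kb of both kinases in sh-control and 24.9%, 12.1% and 19.6% in sh-*RREB1*, and these ranges overlapped. *CDK4* shares its 3' end with *TSPAN31* on the other strand, and counts that ignore strand lose the reads that overlap both genes. On the strand of *CDK4* the libraries held between 3155 and 8126 reads, but only between 1464 and 4116 when both strands were counted together. With the latter counts the *CDK4* log2 fold change was 0.51 and *CDK6* made up 25.3% ± 7.79 of the kinases in sh-control and 32.0% ± 9.76 in sh-*RREB1* (SD, n = 3).

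The INK4 inhibitors *CDKN2C* and *CDKN2D* had log2 fold changes at or below 0. *CDKN2C* (chr1:50960745-50974634, plus strand) stood at 40.5, 54.2 and 55.5 CPM in sh-control and at 39.0, 37.4 and 41.2 CPM in sh-*RREB1*. The 3 sh-*RREB1* libraries lay close together, and sh-control replicate 1 fell among them. The log2 fold change was −0.35 (SE 0.15, 95% interval −0.69 to −0.01). *CDKN2D* (chr19:10566460-10569059, minus strand) was rare, with 31 to 94 reads per library, and its means were 2.25 ± 0.61 CPM in sh-control and 2.28 ± 0.24 CPM in sh-*RREB1* (SD, n = 3). Its log2 fold change was −0.00 with a wide interval, −0.56 to 0.55, so a difference in either direction could be missed at this depth.

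The CIP/KIP inhibitors *CDKN1B* and *CDKN1C* differed from each other. *CDKN1B* (chr12:12685498-12722369, plus strand) stood at 31.5, 32.6 and 30.0 CPM in sh-control and at 47.2, 26.3 and 42.3 CPM in sh-*RREB1*. The sh-control libraries were tight, whereas the sh-*RREB1* libraries lay on both sides of them, and the log2 fold change was 0.30 (SE 0.21, 95% interval −0.17 to 0.77). It was 0.13 without sh-*RREB1* replicate 1 and 0.52 without sh-*RREB1* replicate 2. *CDKN1C* (chr11:2883213-2885775, minus strand) was counted 60, 59 and 72 times in sh-control against 49, 41 and 17 times in sh-*RREB1*, or 2.34 ± 0.23 and 1.63 ± 0.32 CPM (SD, n = 3). Every sh-*RREB1* library was lower, and the log2 fold change was −0.50 (SE 0.22, 95% interval −1.005 to 0.01).

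*RB1*, which encodes the retinoblastoma protein (chr13:48303744-48599436, plus strand), was counted 5132, 4680 and 5468 times in sh-control against 3852, 2499 and 1564 times in sh-*RREB1*. These were 223, 172 and 170.1 CPM against 155, 95.4 and 124 CPM, without overlap. The log2 fold change was −0.59 (SE 0.18, 95% interval −1.01 to −0.18), and it ranged from −0.78 to −0.43 when each library was left out in turn.

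By the rule for a call 798 of 23617 genes were called, or 3.38%, and 1 of the 10 genes, *CCND2*. For 6 of the 10 (*CCND1*, *CCND2*, *CCND3*, *CDK6*, *CDKN1C* and *RB1*) the CPM of the groups did not overlap, which was so for 40.9% of all genes. The median log2 fold change of the 10 genes was 0.34, with 6 above 0 and 4 below, and that of all genes was 0.01. The cyclins and kinases made up 5 of the 6 genes above 0, with *CDKN1B* the sixth. Since the list was chosen with these results known, nothing is read from these counts. Without sh-*RREB1* replicate 3, the library with many multimapped reads, the log2 fold changes were 1.83 for *CCND2*, 0.95 for *CDK6*, 0.80 for *CCND3*, 0.52 for *CCND1*, 0.40 for *CDK4*, 0.23 for *CDKN1B*, −0.05 for *CDKN2D*, −0.39 for *CDKN2C*, −0.40 for *CDKN1C* and −0.59 for *RB1*. *CCND2* was again the gene called. Without sh-control replicate 1 they were 1.79 for *CCND2*, 1.08 for *CDK6*, 0.63 for *CCND3*, 0.42 for *CCND1*, 0.23 for *CDK4*, 0.27 for *CDKN1B*, −0.19 for *CDKN2D*, −0.52 for *CDKN2C*, −0.45 for *CDKN1C* and −0.48 for *RB1*, with *CCND2* and *CDK6* called.

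The groups also differed in how read counts depended on base composition, and the exons of the 10 genes ranged from 36.9% to 67.3% GC. Genes with a mean of at least 1 CPM were divided into 10 bins of nearly equal size by the GC content of their exons. The bin with the lowest GC content, which holds *RB1* (36.9% GC), had a median log2 fold change of −0.23, and the bin with the highest, which holds *CDKN2D* (62.1%) and *CDKN1C* (67.3%), one of 1.13. *CCND2* (47.3%) lay in a bin with a median of −0.07. When each library's dependence on GC content and on exonic length had been subtracted, 714 genes were called, 3.02% of those tested. Of these 432 were higher and 282 lower in sh-*RREB1*, against 635 higher and 163 lower before the correction. The correction shifted the sh-control libraries unequally, so the dependence differed within that group too. In sh-control *CCND3* went from 9.15, 13.7 and 14.2 CPM to 4.06, 3.99 and 3.87 log2 CPM. *CDKN1C* went there from 2.60, 2.17 and 2.24 CPM to 3.20, 1.65 and 1.40 log2 CPM.

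With the correction, 4 of the 10 genes were called. *CCND2* kept a log2 fold change of 1.87 (SE 0.08, 95% interval 1.69 to 2.05), and *CDK6* reached 1.20 (SE 0.12, 95% interval 0.95 to 1.46). Both were called in all 6 corrected fits that left out 1 library. The inhibitors with GC-rich exons had lower values, *CDKN2C* −0.97 (95% interval −1.26 to −0.68), *CDKN2D* −1.04 (−1.52 to −0.57) and *CDKN1C* −2.22 (−3.14 to −1.29), the latter pair being called. *CDKN1C* was called in 3 of the corrected fits that left out 1 library, each without an sh-control library, and *CDKN2D* in 1, without sh-control replicate 2. *CDKN1C* combines few reads with GC-rich exons, and its corrected log2 CPM ran from 1.40 to 3.20 within sh-control.

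The other cyclins moved toward 0. *CCND3* went from 0.84 to 0.14 (95% interval −0.13 to 0.41) and *CCND1* from 0.51 to 0.31 (0.07 to 0.54). *CDK4* went from 0.39 to 0.19 (−0.01 to 0.39), *CDKN1B* from 0.30 to 0.50 (0.16 to 0.83) and *RB1* from −0.59 to −0.39 (−0.56 to −0.22). *CCND2* was thus the only gene of the list called both with and without the correction. *CDK6* was called with it, at 1.20, and fell just short as counted, at 0.99. The correction can also remove a true difference that follows GC content, so neither set of values is taken as the right one.

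**Figure D4:**
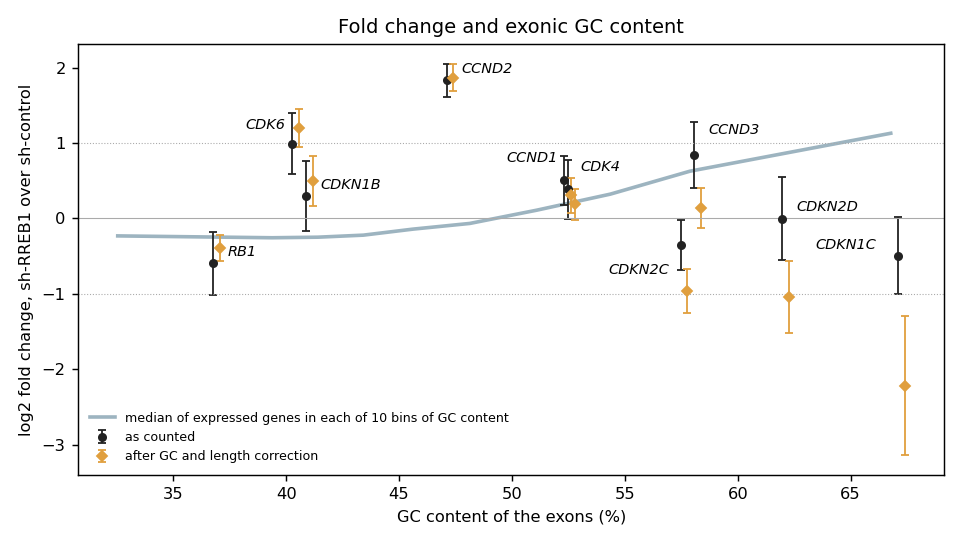
Log2 fold change (sh-*RREB1* over sh-control) of the 10 genes against the GC content of their exons in percent. Circles are values as counted and diamonds values after the correction for GC content and length, with 95% confidence intervals, the line joins the medians of genes with a mean of at least 1 CPM in each of 10 bins of GC content, and dotted lines mark a log2 fold change of 1 and −1. *CCND2* stays near 1.83 to 1.87. The line is drawn from values as counted, and the circles of *CDKN2C*, *CDKN2D* and *CDKN1C* lie below it. Their diamonds, which have each library's trend subtracted and are not to be set against the line, lie at −0.97, −1.04 and −2.22.

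The rest of the pathway was followed in a list of 47 genes, all of them tested: partner kinases and cyclins, other CDK inhibitors, other pocket proteins, E2F and DP factors, turnover and chaperone factors of the cyclin D complexes, and E2F targets. None of the 47 was called by edgeR. An unadjusted p below 0.05 was found for 31 of the 47, against 8069 of all 23617 genes (34.2%). An adjusted p below 0.05 was found for 17 of the 47, against 4575 of all 23617 genes (19.4%). Of these 17 list genes, 7 were higher and 10 lower. Both shares were above those of all genes, but the list was chosen with earlier results known, so nothing is read from them. DESeq2 called 3 (*CDT1*, *FZR1* and *CDC37*) and 7.01% of all genes, and edgeR without sh-control replicate 1 called 2 (*CDT1* and *FZR1*) and 4.87% of all genes. Of the 47, 21 lay above 0 and 26 below, with a median of −0.09. With the correction for GC content and length edgeR again called 0. Of the 47, 23 then had an unadjusted p below 0.05, against 8026 of all 23617 genes (34.0%).

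Partner kinases and cyclins lay mostly below 0, with 7 of 9 genes lower as counted. Their median was −0.41 (−0.66 to 0.31), and −0.28 with the correction. The lowest were *MNAT1*, a subunit of the CDK-activating kinase, at −0.66 (SE 0.10, edgeR adjusted p = 0.00536), and *CCNE2*, cyclin E2, at −0.66 (SE 0.15, adjusted p = 0.0187), both short of the fold required for a call. With the correction they were at −0.41 (adjusted p = 0.0452) and −0.40 (adjusted p = 0.0086), and *CCNA1*, cyclin A1, was then the lowest of these genes, at −0.81 (edgeR adjusted p = 0.0129). The other pocket proteins *RBL1* and *RBL2* were at −0.60 and −0.22, and at −0.35 and −0.03 with the correction. Among the other CDK inhibitors, the INK4 genes *CDKN2A* and *CDKN2B* were at 0.57 (edgeR adjusted p = 0.0144) and −0.13. With the correction they were at 0.08 and 0.01. The CIP/KIP gene *CDKN1A* was at 0.47, and at −0.11 with the correction. The median of these other inhibitors was 0.47, and 0.01 with the correction.

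E2F targets, the genes that RB restrains, were split: 9 of 16 were above 0 and 7 below, with a median of 0.06 and a range of −0.63 to 1.77. The licensing factor *CDT1* had the highest log2 fold change of the whole list, 1.77 (SE 0.36, edgeR adjusted p = 0.013), and *CDC6*, which loads the MCM helicase with it, one of the lowest, −0.63 (SE 0.10, adjusted p = 0.00599). *CDT1* had read counts of 43, 144 and 198 in sh-control against 425, 378 and 179 in sh-*RREB1*. These were 1.87, 5.29 and 6.16 CPM against 17.1, 14.4 and 14.2 CPM. Next below *CDT1* came *FZR1*, an activator of the anaphase-promoting complex, at 1.70 (SE 0.46, adjusted p = 0.0332), and *CDC37*, the chaperone that loads kinases such as CDK4 onto HSP90, at 1.10 (SE 0.29, adjusted p = 0.0311). These 3 genes have GC-rich exons (61.4% to 64.3%), and with the correction they were at 0.57, 0.54 and 0.15. *CDC6* (43.5% GC) was at −0.46 with the correction.

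**Figure D5:**
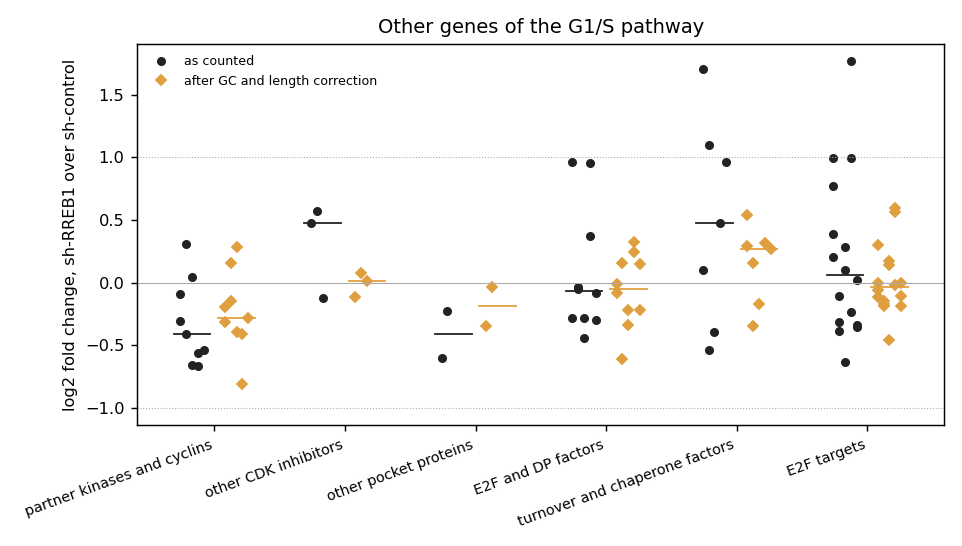
Log2 fold change (sh-*RREB1* over sh-control) of the 47 other G1/S genes by function. Circles are values as counted, diamonds values after the correction for GC content and length, and lines the medians of each group of genes. E2F targets spread on both sides of 0, from −0.63 to 1.77 as counted and from −0.46 to 0.59 after the correction.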

How the data were processed

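RNA was prepared with a stranded total RNA kit. The authors quantified reads with STAR 2.4.2a on hg38 and Gencode 25. They deposited unnormalized counts per gene, unstranded and for either strand, in a table per library and in a merged table. Sense-strand counts were taken, without reads outside genes.

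For each symbol the identifier with the most reads was kept, and genes with fewer than 10 reads over the 6 libraries were dropped, which left 23617. Groups were compared with edgeR 4.0.16 (TMM, quasi-likelihood test, condition only, Benjamini-Hochberg adjustment) in R 4.3.3, and with DESeq2 1.42.0 as an alternative. CPM are scaled by TMM, and log2 CPM carry a prior count of 0.5. Lengths and GC content came from Gencode version 44. The correction subtracted natural splines (5 degrees of freedom each) on GC content and length as an offset. Scripts were tested on simulated data without a trend on GC content or length, so the removal of such a trend was not tested. Reads on genes were 23362197, 28441551 and 33044061 in sh-control and 23665991, 26145878 and 12257054 in sh-*RREB1*. The depth limits *CDKN1C* and *CDKN2D* most.

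The members and lists were chosen with earlier results of these data known. Named were *RREB1*, the 10 members, called genes of the G1/S list with its 3 largest increases and decreases at a mean of at least 1 CPM, and the 3 genes with the profile most like the member that differed most as counted. The other pocket proteins, the other CDK inhibitors and *CCNA1* were named after their values were seen.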

Additional observations from a re-analysis of the deposited data

How the results depend on the processing

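*CCND2* was called under each alternative, at a log2 fold change of 1.73 (upper-quartile scaling) to 1.91 (with the correction, sh-*RREB1* replicate 2 left out), against 1.83 in the values as reported. Genes called numbered 1656 with DESeq2, 1829 with a minimum of 1 read, 2053 at an adjusted p of 0.05, 1282 with no minimum fold change, and 8 to 1120 when each library was left out, the lowest counts being 9 (sh-control replicate 2 left out), 25 (sh-*RREB1* replicate 1) and 8 (sh-*RREB1* replicate 3). Genes called also numbered 853 with edgeR's filterByExpr and 595 with both strands together. They numbered 1060 with upper-quartile scaling and 714 with the correction, against 798 in the values as reported. Members called, of 10, numbered 2 with filterByExpr, both strands together or no minimum fold change (*CDK6* joining *CCND2*). They numbered 1 to 2 when each library was left out, and 4 with the correction for GC content and length. G1/S genes called, of 47, numbered 3 with DESeq2, a minimum of 1 read or an adjusted p of 0.05. They numbered 1 with upper-quartile scaling, 2 with no minimum fold change, and 0 to 2 when each library was left out. The members' median of 0.34 became 0.25 with upper-quartile scaling, 0.40 with filterByExpr or both strands together, 0.16 with the correction, and 0.25 to 0.37 when each library was left out.

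The correction and 1 library left out together were chosen after seeing the data. Genes called then numbered 715, 506 and 676 in the fits that lacked sh-control replicates 1, 2 and 3. They numbered 494, 625 and 457 in the fits that lacked sh-*RREB1* replicates 1, 2 and 3. In the same order, members called numbered 3, 4, 4, 3, 2 and 3, and the members' median was 0.18, 0.18, 0.12, 0.19, 0.18 and 0.12. *CDKN2C* was then called in the fits that lacked sh-control replicate 3 (−1.04), sh-*RREB1* replicate 1 (−1.04) or sh-*RREB1* replicate 3 (−1.03). *CDKN2D*, near 0, changed sign to 0.052 with filterByExpr, 0.028 with both strands together and 0.047 with the replicate block, and ranged from −0.19 to 0.21 when each library was left out, being above 0 when sh-control replicate 3 (0.21) or sh-*RREB1* replicate 1 (0.09) was left out. With canonical transcript lengths the share of *CCND2* was 49.4% in sh-control and 67.6% in sh-*RREB1*, and 3 genes kept their place in the order of levels, against 8 in sh-control replicate 3 alone.

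Deviations of same-numbered libraries correlated at 0.49, 0.38 and −0.27, and not every library correlated best with its own number. With 3 libraries per group these values cannot decide whether replicate numbers pair the samples. With the replicate block 1707 genes, 1 member and 6 G1/S genes were called, and with the replicate block and the correction together 883 genes and 4 members were called, with a members' median of 0.16. The causes of these shifts were not tested. Depth and the 3 libraries per group limit the values of *CDKN1C* and *CDKN2D* most.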
